A study of Mus musculus with 6 samples.

Results

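The genes described here are 10 ligands and receptors of the TNF family that T cells use when they help B cells, measured in splenic follicular Th (Tfh) cells. They were chosen by name and not by a cut on measured values, although earlier results of these data were known. They are the receptors *Tnfrsf4* (OX40), *Tnfrsf9* (4-1BB), *Cd27* and *Tnfrsf1b* (TNFR2), and the ligands *Cd40lg*, *Tnfsf8* (CD30L), *Tnfsf14* (LIGHT), *Tnfsf11* (RANKL), *Fasl* and *Cd70*. They are 10 of the 53379 genes counted, and 9 of the 10 passed the expression filter that left 14555 genes for testing. *Cd70* did not pass.

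The cells came from the spleens of 3 CTL and 3 *Prdm1*-CKO female mice, aged 6 to 8 weeks and taken 7 days after immunization with the hapten conjugate NP-CGG in CFA. In *Prdm1*-CKO mice (*Prdm1* fl/fl with a CD11c-CRE transgene) the gene for the transcriptional repressor BLIMP-1 is deleted in CD11c-expressing cells, chiefly DCs, and not by design in Tfh cells. The CTL mice carried either floxed *Prdm1* without CRE or wild-type *Prdm1* with CRE, and the labels do not say which mouse carried which. The titles of the second group speak of a knockout and its genotype field of a knockdown. Each mouse gave 1 Smart-seq2 library from live TCRβ+CD4+CXCR5+PD1+ cells, a gate that did not use FOXP3. The question for these genes was whether the Tfh cells that develop beside BLIMP-1-deficient DCs carry different levels of the TNF family transcripts that pass signals between T and B cells.

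TNF family ligands are mostly trimeric membrane proteins, and they bind receptors on a neighboring cell. Most of the receptors recruit TRAF adaptors and activate NF-kB, while receptors with a death domain, such as FAS, can start apoptosis. In the germinal center, CD40L on Tfh cells binds CD40 on B cells and is required for their survival and class switching, and OX40 on T cells binds OX40L on antigen-presenting cells. CD27 and 4-1BB carry costimulatory signals into T cells, and FASL and RANKL are induced when T cells are activated.

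Total counts lay between 7147601 and 16973392 per library, so that 3 counts corresponded to between 0.177 and 0.420 CPM, counting error only. CTL replicate 2 stood apart from the other 5 libraries on the first principal component of all genes (134.6 against -29.1 to -24.0, 56.4% of the variance). It also had the fewest genes detected, 16650 against 18480 to 21501, and the largest mitochondrial share of counts, 5.83% against 2.11% to 4.41%. Estimates with this library left out are given below, and the part of these signs in the results was not tested in any other way. All 12 Tfh markers were present, with *Cxcr5* between 254 and 477, *Pdcd1* between 188 and 385, *Icos* between 232 and 324 and *Bcl6* between 66.0 and 124 CPM in the 6 libraries. Passing the filter does not single out Tfh cells, because nearly all markers of other cells passed it too. All 10 B cell markers had counts, with a summed level of 104 to 181 CPM in CTL and 156 to 243 CPM in *Prdm1*-CKO mice. Of 7 regulatory T cell markers all were tested, with *Foxp3* between 134 and 182 CPM and a summed level of 796 to 860 CPM in CTL and 681 to 777 CPM in *Prdm1*-CKO mice. Regulatory T cells also carry OX40, 4-1BB and TNFR2, and in bulk RNA fewer cells of a type and less RNA per cell cannot be told apart. The 10 macrophage and monocyte markers summed to 4857, 2271 and 3471 CPM in CTL and 4694, 3942 and 4764 CPM in *Prdm1*-CKO mice, with 9 of 10 log2 fold changes above 0, and most of this was *Lyz2*, at 1763 to 3476 CPM over the 6 libraries. The 6 plasma cell markers, all above 0, summed to 482 to 735 CPM in CTL and 735 to 941 CPM in *Prdm1*-CKO mice. The 9 CD8 and NK markers, 7 of them below 0, summed to 280 to 365 CPM in CTL and 225 to 285 CPM in *Prdm1*-CKO mice, and 8 DC markers to 150 to 226 and 156 to 289 CPM. No marker gene was called. Among those below 0, *Gzma*, a granzyme, had the smallest unadjusted p of the marker lists, with a log2 fold change of -1.14 (p = 0.00725), and among those above 0 it was *C1qc*, a complement gene of macrophages, at 1.49 (p = 0.031), both from edgeR's quasi-likelihood test and not from an exact test, and each with an adjusted p of 0.996. *Prdm1* itself, whose gene-level count does not show the deleted exons, was at 28.9, 30.0 and 27.5 CPM in CTL and 30.2, 30.8 and 30.9 CPM in *Prdm1*-CKO mice.

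The promoter windows of 3 members are shown because they are the receptor with the highest level per kb of exon, the 1 member with an NF-kB consensus match in its windows, and the tested ligand with the largest ratio of its highest to its lowest library. RefSeq windows on GRCm38.p6, from 250 bases before to 50 bases after a start, were matched for 8 of the 10 members, with 9 windows in all because *Tnfrsf9* has 2 starts. Each window is written 5′ to 3′ on the strand of its gene. Capitals mark matches to the NF-kB (kappa B) consensus or to TATAAA, both searched on both strands.
Tnfrsf4, chr4:156013445-156013744, plus strand: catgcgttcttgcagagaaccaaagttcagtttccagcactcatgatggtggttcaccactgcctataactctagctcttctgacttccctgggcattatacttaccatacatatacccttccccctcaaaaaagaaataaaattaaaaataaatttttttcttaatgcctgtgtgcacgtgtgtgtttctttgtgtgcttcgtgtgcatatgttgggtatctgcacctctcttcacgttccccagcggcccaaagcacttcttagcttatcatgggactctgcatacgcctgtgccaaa
Tnfrsf9, chr4:150927749-150928048, plus strand: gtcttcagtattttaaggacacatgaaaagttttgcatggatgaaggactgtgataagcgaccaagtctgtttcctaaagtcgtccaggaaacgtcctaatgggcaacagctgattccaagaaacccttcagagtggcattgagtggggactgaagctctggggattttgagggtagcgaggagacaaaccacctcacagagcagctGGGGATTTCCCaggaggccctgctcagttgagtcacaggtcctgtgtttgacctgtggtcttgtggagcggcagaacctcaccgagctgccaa
Tnfsf11, chr14:78307994-78308293, minus strand: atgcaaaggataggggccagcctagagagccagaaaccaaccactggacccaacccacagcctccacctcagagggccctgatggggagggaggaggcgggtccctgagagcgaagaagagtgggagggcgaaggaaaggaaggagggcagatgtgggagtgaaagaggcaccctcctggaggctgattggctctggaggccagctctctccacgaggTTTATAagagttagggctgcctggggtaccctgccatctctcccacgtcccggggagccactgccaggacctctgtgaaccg
The NF-kB consensus occurred in 4.51% of 32851 windows of this length, and among the members only in this second *Tnfrsf9* window, as 2 overlapping matches. TATAAA on either strand occurred in 13.6% of all windows, and among the members only in *Tnfsf11*. There the match lay on the strand opposite to the gene, so it is printed as TTTATA, and it began at position -32 from the start. GGAAAA on either strand, the core that NFAT factors bind, was in 23.4% of all windows and in those of *Fasl*, *Cd27* and the other *Tnfrsf9* start. The *Tnfrsf4* window held none of the 3, but it ends before the annotated start of the gene at 156013843, so the bases there were not searched. These matches describe letters in the windows, and binding was not measured.

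All 9 tested members were well expressed in the sorted Tfh libraries of both groups, and *Cd70* was close to the detection floor. These libraries also held transcripts of other cells, so the levels are those of the sorted pool. On the scale of CPM per kb of exon, which allows genes of different length to be compared, the receptors led. *Tnfrsf4* was first at 176 ± 27.6 (SD, n = 6), followed by *Cd27* at 134 ± 16.8, *Tnfrsf1b* at 114 ± 32.0 and *Tnfrsf9* at 67.2 ± 7.89. *Cd40lg* was the highest ligand at 66.6 ± 12.9 CPM per kb, followed by *Tnfsf8* at 49.1 ± 11.7, *Tnfsf14* at 29.0 ± 6.48, *Tnfsf11* at 24.3 ± 9.85, *Fasl* at 14.0 ± 2.24 and *Cd70* at 0.443 ± 0.517. *Tnfrsf4* exceeded *Cd27* in 6 of 6 libraries. *Cd27* exceeded *Tnfrsf1b* in only 4, and the difference of their means was smaller than the SD of *Tnfrsf1b*. *Tnfrsf9* and *Cd40lg* had a ratio of means of 1.01 and were not separated by their spread, although *Tnfrsf9* was above in 5 of 6 libraries, CTL replicate 2 being the other. *Tnfsf14* was above *Tnfsf11* in 6 of 6 libraries with a ratio of means of 1.19, a difference smaller than either SD. Ranked by CPM without length, *Tnfrsf1b* came first and only 3 of the 10 positions were the same, while the longest transcript in place of all exons gave the same order for all 10.

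**Figure D1:**
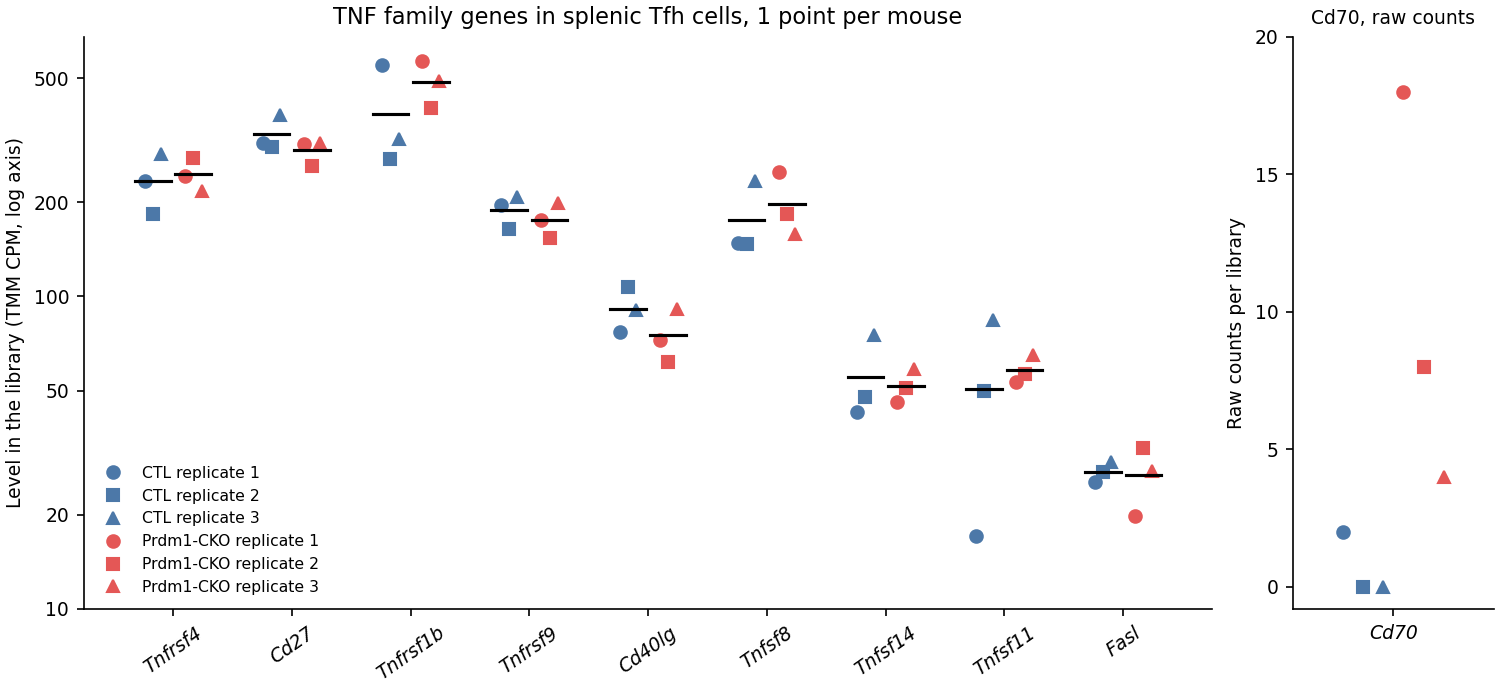
Level of each member in each library: the left panel gives TMM-normalized CPM on a log axis for 9 genes, with 1 point per mouse and black lines at the group means, and the right panel gives raw counts of *Cd70*. CTL (blue) and *Prdm1*-CKO (red) mice overlap in all 9 genes on the left, *Tnfsf11* has 1 low CTL library at 17.1 CPM, and the *Cd70* counts of 18, 8 and 4 lie above the CTL counts of 2, 0 and 0.

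No member differed between the groups past the threshold when edgeR compared both sets of mice, with 0 of 9 at an adjusted p under 0.05 against a background of 0% of the 14555 genes tested. At an unadjusted p under 0.05 the count was also 0 of 9, where the background was 2.35% (0.928% higher and 1.42% lower), and DESeq2 called 0.0531% of its genes at an adjusted p under 0.05 and none of the members. The groups did not overlap in 0 of 9 members, against 8.42% of all tested genes. The log2 fold change was above 0 for 4 members and below 0 for 5, with a median of -0.037 beside 0.01 over all genes tested. Each member's adjusted p from edgeR was 0.996, except for *Fasl* at 0.997. With 3 mice in each group, 0.1 is the lowest two-sided p an exact permutation can reach.

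Among the receptors, *Tnfrsf4*, on chromosome 4 of GRCm38 from 156013843 to 156016612, was at 235, 184 and 285 CPM in CTL replicates 1 to 3 and at 243, 277 and 218 CPM in the 3 *Prdm1*-CKO mice. The 3 *Prdm1*-CKO libraries lay inside the range of the CTL libraries. Mean levels were 235 ± 50.8 and 246 ± 29.7 CPM (SD, n = 3 each), and the log2 fold change was 0.07 (standard error 0.19, 95% interval -0.37 to 0.50). Without CTL replicate 2, the library that stood apart and the lowest for this gene, it was -0.10.

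*Cd27*, a costimulatory receptor of naive and activated T cells on chromosome 6 from 125232622 to 125237010, was at 311, 301 and 382 CPM in CTL and 308, 262 and 310 CPM in *Prdm1*-CKO mice. *Prdm1*-CKO replicate 2 was the lowest library and CTL replicate 3 the highest, and the other 4 lay close together. The means were 331 ± 44.5 and 294 ± 27.6 CPM, with a log2 fold change of -0.17 (standard error 0.15, 95% interval -0.52 to 0.18). *Mir8113* overlaps *Cd27* over 129 bases on the same strand and had 0 counts.

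*Tnfrsf9*, on chromosome 4 from 150914562 to 150946102, was at 196, 164 and 208 CPM in CTL and at 176, 154 and 199 CPM in *Prdm1*-CKO mice. It was the receptor with the least spread in CTL mice in CPM, and the groups overlapped over most of their range. Means of 190 ± 22.8 and 177 ± 22.5 CPM gave a log2 fold change of -0.10 (standard error 0.16, 95% interval -0.48 to 0.27).

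*Tnfrsf1b*, which binds TNF and lymphotoxin-α and lies on chromosome 4 from 145213463 to 145246870, was at 552, 276 and 320 CPM in CTL and at 569, 400 and 491 CPM in *Prdm1*-CKO mice. CTL replicate 1 lay among the *Prdm1*-CKO libraries, and the other CTL libraries lay below all of them. Means were 382 ± 148 and 487 ± 84.2 CPM, and the log2 fold change was 0.35 (standard error 0.27, 95% interval -0.26 to 0.96). The estimate ran from 0.15 without CTL replicate 2 to 0.69 without CTL replicate 1, where edgeR gave an unadjusted p of 0.0101 and an adjusted p of 0.669. Macrophages also carry TNFR2, and the TCRβ+CD4+ gate is meant to remove them. *Csf1r*, a defining macrophage gene, was at 827, 319 and 386 CPM in CTL and at 739, 559 and 807 CPM in *Prdm1*-CKO mice. Like *Tnfrsf1b*, it was high in CTL replicate 1 and lowest in CTL replicate 2. *Cd163*, the 1 macrophage marker with a log2 fold change below 0 (-0.24), was not. It was at 15.7, 15.8 and 10.7 CPM in CTL and at 11.2, 8.74 and 15.8 CPM in *Prdm1*-CKO mice. The median log2 fold change of the 10 macrophage and monocyte markers was 0.44, and their part in the *Tnfrsf1b* value was not tested.

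Of the ligands, *Cd40lg*, on chromosome X from 57212143 to 57224042, is the central helper molecule of Tfh cells. It was at 76.8, 107 and 90.4 CPM in CTL and at 72.4, 61.9 and 91.0 CPM in *Prdm1*-CKO mice. The highest *Prdm1*-CKO library exceeded CTL replicates 1 and 3, so the groups overlapped. Means of 91.4 ± 15.2 and 75.1 ± 14.7 CPM gave a log2 fold change of -0.28 (standard error 0.21, 95% interval -0.76 to 0.19), and it was -0.16 without CTL replicate 2 and -0.09 with voom weights. The 12 Tfh markers had a median log2 fold change of -0.02, with 5 above 0 and 7 below. Of these *Cd4*, a gene of the sort gate, was the 1 of 12 whose groups did not overlap (background 8.42%, 3.86% lower), at 896, 1061 and 1031 CPM in CTL and 823, 774 and 847 CPM in *Prdm1*-CKO mice, with a log2 fold change of -0.29 (unadjusted p = 0.0465 and adjusted p = 0.996 in edgeR). *Cd3e*, *Trac* and *Cd3g*, the genes of the T cell receptor complex in the list, were at -0.10, -0.02 and 0.06, and the part of *Cd4* in the *Cd40lg* value was not tested.

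*Tnfsf8*, the ligand of CD30, on chromosome 4 from 63831308 to 63861347, was at 148, 147 and 234 CPM in CTL and at 250, 183 and 159 CPM in *Prdm1*-CKO mice. Each group held 1 library well above its other 2. Means were 176 ± 49.7 and 198 ± 46.9 CPM, with a log2 fold change of 0.17 (standard error 0.24, 95% interval -0.39 to 0.72).

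*Tnfsf14*, which binds HVEM and the lymphotoxin-β receptor, was at 42.7, 47.6 and 75.3 CPM in CTL and at 46.0, 50.8 and 58.6 CPM in *Prdm1*-CKO mice. All 3 *Prdm1*-CKO libraries lay inside the CTL range, whose upper end was set by CTL replicate 3. Means of 55.2 ± 17.6 and 51.8 ± 6.35 CPM gave a log2 fold change of -0.09 (standard error 0.25, 95% interval -0.66 to 0.49).

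*Fasl*, which starts apoptosis in cells that carry FAS, on chromosome 1 from 161780689 to 161788495, was at 25.4, 27.5 and 29.6 CPM in CTL and at 19.9, 32.8 and 27.7 CPM in *Prdm1*-CKO mice. Here the CTL libraries lay inside the *Prdm1*-CKO range. Means were 27.5 ± 2.09 and 26.8 ± 6.52 CPM, and the log2 fold change was -0.04 (standard error 0.25, 95% interval -0.61 to 0.53).

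*Tnfsf11*, which encodes RANKL, the ligand known from osteoclast and dendritic cell biology, had the largest SD of log2 CPM between CTL mice among the 9 tested members. On chromosome 14 from 78277445 to 78308043, it was at 17.1, 49.8 and 84.3 CPM in CTL and at 53.4, 56.5 and 65.1 CPM in *Prdm1*-CKO mice. The 3 *Prdm1*-CKO libraries lay between CTL replicates 2 and 3, and CTL replicate 1 was far below the rest. The highest CTL library was 4.92 times the lowest, against 1.22 times in *Prdm1*-CKO mice, and the SD of log2 CPM was 1.17 in CTL and 0.15 in *Prdm1*-CKO mice. Of all tested genes, 14.7% had a CTL SD at least as large, and the median SD over all tested genes was 0.45 in CTL and 0.25 in *Prdm1*-CKO mice. The difference in spread was not tested. The log2 fold change of 0.22 had the widest 95% interval among the 9 tested members, from -0.87 to 1.30 (standard error 0.47). It was -0.22 without CTL replicate 1 and 0.82 without CTL replicate 3.

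**Figure D2:**
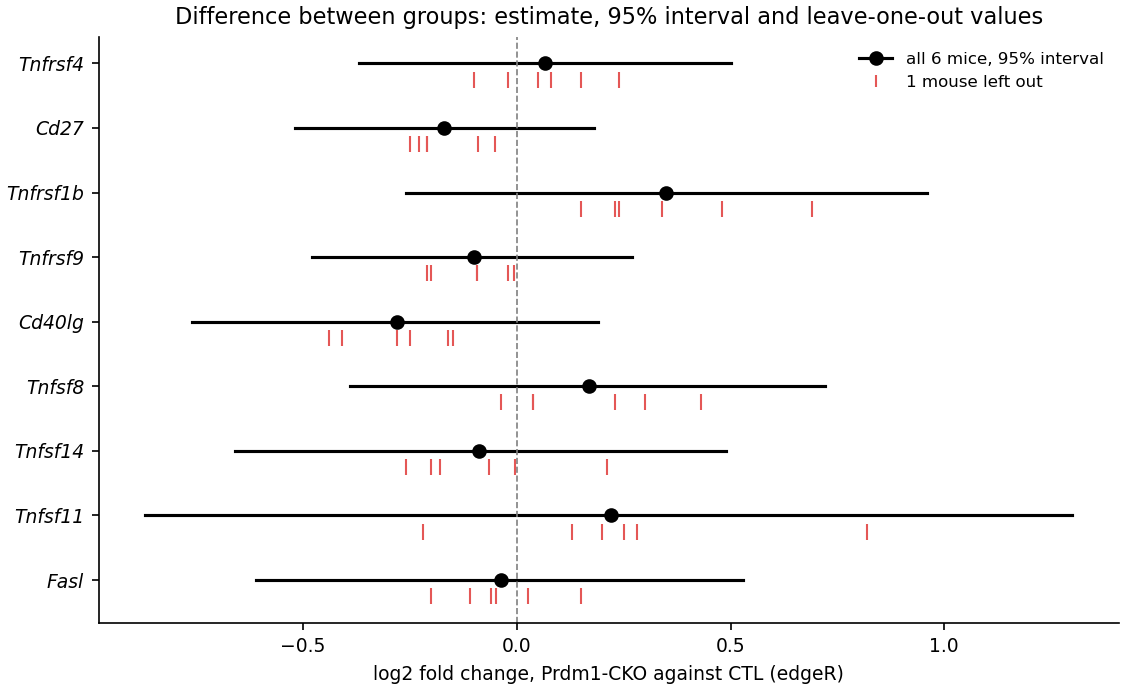
Log2 fold change of *Prdm1*-CKO against CTL mice for the 9 tested members (horizontal axis): black points and lines are the edgeR estimate and its 95% interval, and red ticks are the estimates with 1 of the 6 mice left out. All 9 intervals include 0, and the ticks of *Tnfsf11* run from -0.22 to 0.82.

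*Cd70*, the ligand of CD27, on chromosome 17 from 57145997 to 57149777, was the 1 member whose groups did not overlap, at the lowest level of the 10. CTL replicates 1 to 3 gave 2, 0 and 0 counts, and *Prdm1*-CKO replicates 1 to 3 gave 18, 8 and 4, which is 0.137, 0 and 0 CPM and 1.01, 0.813 and 0.274 CPM. The 2 CTL libraries with 0 counts allow levels of up to 0.348 and 0.420 CPM, both above the value of *Prdm1*-CKO replicate 3. Pooled over the libraries, 2 of 29948339 and 30 of 41612879 counts gave a rate ratio of 10.8 with an exact 95% interval of 2.74 to 93.2, which covers counting error only and not the difference between mice. The interval takes each count as a separate molecule, and would be too narrow if both mates of a read pair were counted, which is not known. At the *Prdm1*-CKO rate, 21.6 counts would have fallen in the CTL libraries. Leaving out *Prdm1*-CKO replicate 1, the library with the most counts, gave a ratio of 7.29 (1.62 to 67.1), and without CTL replicate 1, with the CTL group set at 3 counts, the rate was at least 3.79-fold higher.

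Fitted without the expression filter, *Cd70* had an unadjusted p of 0.0418 and an adjusted p of 0.905 in edgeR, where 1.64% of the 26045 genes were higher at an unadjusted p under 0.05. Groups did not overlap, with *Prdm1*-CKO higher, in 4.15% of those genes, and the two-sided exact permutation p of *Cd70* was 0.1. The difference therefore did not pass the threshold, and over the alternatives the unadjusted p ran from 0.0107 with voom weights to 0.171 without *Prdm1*-CKO replicate 1, with 0.0614 from DESeq2. Activated B cells and DCs also carry CD70, and the TCRβ+CD4+ gate is meant to remove both. The DC markers went both ways, with 4 log2 fold changes above 0 and 3 below. The log2 fold changes of the 10 B cell markers were all above 0, with a median of 0.83 and 0 of 10 called. In 3 of them (*Cd79b*, *Pax5* and *Cr2*) the groups did not overlap, with *Prdm1*-CKO higher, against 4.56% of all genes tested with the filter. *Pax5*, which defines B cells, was at 1.64, 0 and 1.18 CPM in CTL and 2.37, 3.05 and 2.67 CPM in *Prdm1*-CKO mice, and *Blnk*, *Fcer2a* and *Ebf1* also had 0 counts in CTL replicate 2. The rest of the list had counts there. *Cd22* and *Ms4a1* were at 61.1 and 18.0 CPM in that library, above their 35.1 and 11.5 CPM in CTL replicate 3. The log2 fold change of *Cd22* was 0.04. The part of B cell or DC RNA in the *Cd70* counts was not tested.

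The partner of each member was also counted in the sorted cells, although most partners act on other cells. *Tnfsf4*, which encodes OX40L, had groups that did not overlap. It was at 2.40, 6.04 and 2.37 CPM in CTL and at 1.86, 1.42 and 2.26 CPM in *Prdm1*-CKO mice. The lowest CTL and the highest *Prdm1*-CKO libraries were close, and CTL replicate 2 was far above the others. Its log2 fold change was -0.95 (standard error 0.60, unadjusted p = 0.153 and adjusted p = 0.996 in edgeR), and groups did not overlap, with *Prdm1*-CKO lower, in 3.86% of all tested genes. Of the 11 partners 10 were tested, with 0 called, 6 log2 fold changes above 0, 4 below and a median of 0.05. *Tnfsf9* (4-1BBL) was at 9.35 ± 2.87 CPM in CTL and 11.5 ± 1.36 CPM in *Prdm1*-CKO mice, with a log2 fold change of 0.30, and *Tnfrsf11a* (RANK), at 2.03 ± 1.25 and 2.61 ± 0.473 CPM, one of 0.35. The log2 fold changes of *Tnfrsf14* (HVEM), *Cd40*, *Tnfrsf8* (CD30) and *Fas* were 0.21, 0.17, 0.09 and 0.01. Those of *Tnf*, *Lta* and *Ltbr* were -0.12, -0.14 and -0.19. *Tnfrsf11b*, the decoy receptor of RANKL, had 2 counts in 1 library and 0 in the other 5.

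Per kb of exon, every tested member exceeded its tested partners in 6 of 6 libraries except *Fasl*, which was below *Fas* in all 6, at a ratio of 0.396 to 0.695. *Tnfrsf4* exceeded *Tnfsf4* by 41.0 to 262 times, *Tnfsf11* exceeded *Tnfrsf11a* by 15.9 to 63.4 times in 5 libraries and by 381 times in CTL replicate 3, which had only 4 counts of *Tnfrsf11a*, and *Tnfrsf9* exceeded *Tnfsf9* by 6.42 to 12.2 times. The ratio of *Cd40lg* to *Cd40*, which B cells and antigen-presenting cells carry, was 14.5, 15.9 and 16.5 in CTL and 12.2, 9.76 and 12.1 in *Prdm1*-CKO mice. *Tnfsf14* to *Tnfrsf14* was at 2.06, 2.72 and 2.00 in CTL and 1.68, 1.85 and 1.79 in *Prdm1*-CKO mice. In both pairs every CTL library had the higher ratio, with a two-sided exact permutation p of 0.1, the smallest that the design allows, and a Benjamini-Hochberg adjusted p of 0.5 over the 10 ratios tested. *Tnfrsf1b* exceeded its ligand genes *Tnf* by 1.56 to 4.53 times and *Lta* by 1.91 to 6.11 times, both of them genes that T cells themselves transcribe.

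**Figure D3:**
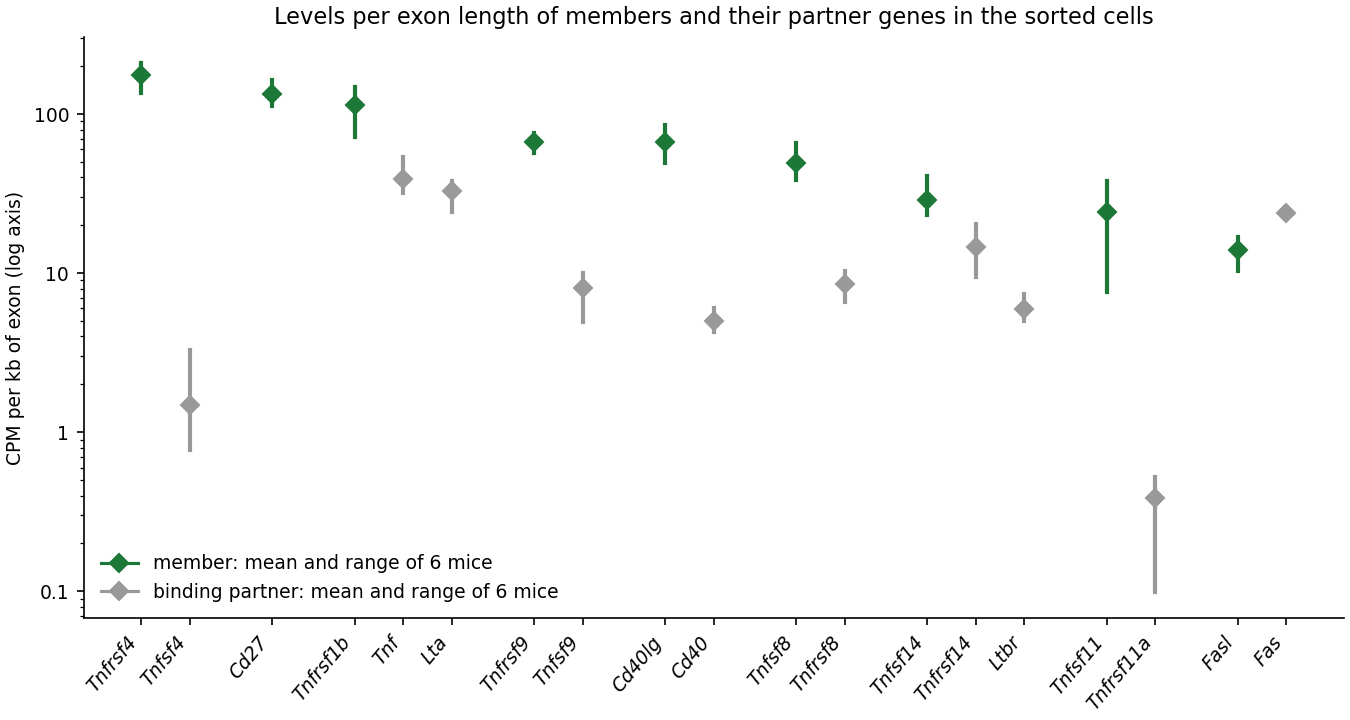
Mean (diamond) and range over 6 mice (line) of CPM per kb of exon, on a log axis, for 9 members in green and the genes of their binding partners in gray. Members lie above their partners except *Fasl*, and *Tnfrsf11a* is the lowest partner shown. *Cd70* and *Tnfrsf11b*, which were at 0 in some libraries, are not drawn.

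No other TNF family gene was called by edgeR. Of 8 other TNF ligands 5 were tested and 0 called, with a median log2 fold change of -0.01. *Ltb*, which T cells place on their surface with lymphotoxin-α, was at 556 ± 94.5 CPM in CTL and 548 ± 33.8 CPM in *Prdm1*-CKO mice, and its log2 fold change was -0.02. The smallest p of this list belonged to *Tnfsf13* (APRIL) among those above 0, at 0.91, and to *Tnfsf10* (TRAIL) among those below, at -0.24. Of 17 other TNF receptors 13 were tested and 0 called, with a median of 0.03. *Tnfrsf18* (GITR), which lies 9552 bp from *Tnfrsf4*, was at 183 ± 23.7 and 183 ± 17.8 CPM and at 120 CPM per kb, beside 176 for *Tnfrsf4*. *Tnfrsf13c*, the BAFF receptor of B cells, was the 1 of 13 whose groups did not overlap, with *Prdm1*-CKO higher, against 4.56% of all tested genes. Its log2 difference was 1.09, with a standard error of 0.50 and an adjusted p of 0.996 in edgeR. The paper reports higher *Tnfrsf13c* in Tfh cells of *Prdm1*-CKO mice, also by qPCR in a separate cohort. The median for the 10 B cell markers was 0.83, and their part in the *Tnfrsf13c* value was not tested. *Tnfrsf25* (DR3) had a log2 difference of -0.21. *Tnfrsf19*, which did not pass the filter, was not detected in the 3 CTL libraries (0 counts) and reached 12, 0 and 29 counts in those of *Prdm1*-CKO animals. The groups overlapped, since *Prdm1*-CKO replicate 2 was also at 0, and edgeR without the filter gave an unadjusted p of 0.00618 and an adjusted p of 0.905. *Eda* and *Edar* had 0 counts in all 6 libraries.

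Downstream of the receptors, all 14 TRAF, caspase and death-domain adaptor genes were tested and 0 were called, with a median log2 fold change of -0.03. *Traf1*, an adaptor induced by NF-kB, was at 387 ± 73.6 CPM in CTL and 382 ± 8.61 CPM in *Prdm1*-CKO mice. *Siva1*, which binds CD27, was at 32.0, 19.3 and 37.7 CPM in CTL and at 44.7, 45.8 and 40.7 CPM in *Prdm1*-CKO mice. It and *Fadd*, the adaptor of FAS, were the 2 of 14 genes whose groups did not overlap with *Prdm1*-CKO higher, where the background was 4.56%. Their log2 fold changes were 0.56 (standard error 0.27, unadjusted p = 0.0683) and 0.46 (standard error 0.27, unadjusted p = 0.122), each with an adjusted p of 0.996 in edgeR. The lowest value of this list was that of *Ripk1*, a kinase of the TNF receptor complex, at -0.39. Of 16 NF-kB pathway genes, all tested, 0 were called, with a median of 0.08, and 11 were above 0, beside 51.1% of all tested genes. *Nfkbie*, an NF-kB inhibitor, was at 95.8 ± 33.9 and 118 ± 0.533 CPM with a log2 fold change of 0.30, and *Map3k7*, the TAK1 kinase, at -0.76, where CTL replicate 2 had 73.0 CPM and the other 5 libraries 17.7 to 29.4.

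**Figure D4:**
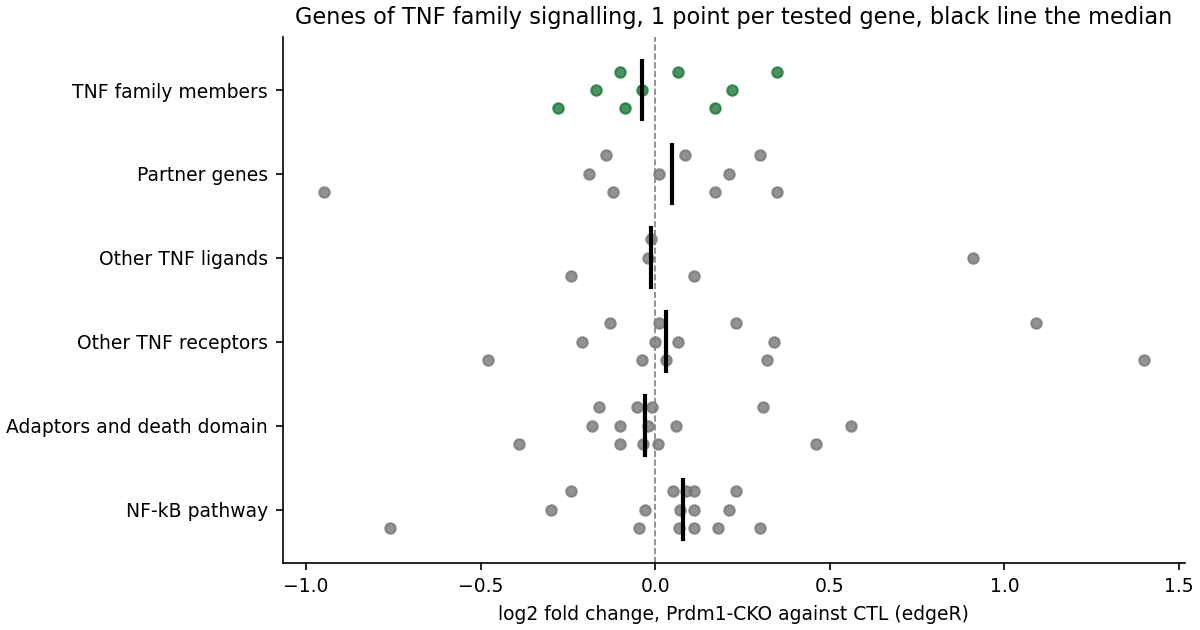
Log2 fold change of *Prdm1*-CKO against CTL mice (horizontal axis) for each tested gene of 6 lists, with a black line at each list's median. The medians lie between -0.037 and 0.079, and the members in green range from -0.28 to 0.35.

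The members did not all follow 1 pattern across the mice. CTL replicate 3 held the highest value for 5 of the 10 members and *Prdm1*-CKO replicate 1 for 3. CTL replicate 2 was the lowest library for *Tnfrsf4*, *Tnfrsf1b* and *Tnfsf8*, and for *Cd70* it was tied with CTL replicate 3 at 0 counts. Over the 6 libraries, as a description, log2 CPM of *Tnfrsf9* and *Cd27* had a Pearson's r of 0.829 (0.863 without CTL replicate 2), and *Tnfsf14* and *Tnfsf11* one of 0.755 (0.778). *Tnfrsf4* and *Cd40lg* had the most negative r, at -0.663, and it was -0.302 without CTL replicate 2. Other pairs became stronger without that library. The r of *Tnfrsf9* and *Cd40lg* went from 0.351 to 0.946, and that of *Tnfrsf4* and *Tnfrsf1b* from 0.169 to -0.808. For *Tnfrsf1b* and *Tnfsf14* it went from -0.438 to -0.849. Among 9301 genes with a mean of at least 10 CPM, those most like *Tnfrsf4*, the highest receptor, were *Psmb4* (r = 0.995), *Fau* (0.992) and *Ptpmt1* (0.989), with 0.991, 0.984 and 0.995 without CTL replicate 2. Those most like *Cd40lg*, the highest ligand, were *Lrrc61* (0.978), *Arhgap5* (0.978) and *Gm39323* (0.973). With 6 libraries that share depth and composition effects, such values describe only these mice.

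Several members lie beside other TNF family genes that had other levels in the same cells. Chromosome 4 holds 4 of the 10 members. *Tnfrsf8* lies 20267 bp from *Tnfrsf1b* and was at 8.56 CPM per kb, beside 114 for *Tnfrsf1b*. *Tnfsf15* lies 86195 bp from *Tnfsf8* and was at 0.394 CPM per kb, beside 49.1 for *Tnfsf8*. On chromosome 17, *Cd70* lies between *Tnfsf14* and *Tnfsf9*, at 0.443 CPM per kb beside 29.0 and 8.06 for its neighbors.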

How the data were processed

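Tfh RNA was measured in 6 libraries, 1 per mouse. The authors deposited raw counts per gene, made with featureCounts and not normalized. The paper names GENCODE on GRCm38, and the submitters' processing notes name STAR 2.4.2a, DESeq2 and GRCm38.p6. Strandedness and the counting of read mates are not given in the sources used here. Gene symbols, exon lengths and positions were taken from GENCODE M21, which holds 53274 of the 53379 identifiers. Gene coordinates were printed only where the version was the same, and were therefore left out for *Tnfsf14*.

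Counts were tested with edgeR 4.0.16 in R 4.3.3 (TMM, filterByExpr, two-sided quasi-likelihood F test, 3 against 3 mice, no covariate) with Benjamini-Hochberg adjustment over all 14555 genes. A gene counted as called at an adjusted p under 0.05. SD and permutation tests on log2 CPM used a prior count of 2. Single values were compared by exact permutation. The steps were tested on simulated data. Alternatives were DESeq2 1.42.0, its size factors, no filter, 10 counts in every library, the replicate block, voom weights (limma 3.58.1), and each library left out in turn. The fits of *Cd70* without the filter and its rate ratios were chosen after seeing the data. No pair of libraries was identical, and 0 columns were unused.

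All members, the partner genes, and the gene with the smallest p in each direction, taken per pathway list and once over the marker lists together, were named. *Cd4*, *Trac*, *Cd3e*, *Cd3g*, *Tnfrsf19*, *Ltb*, *Traf1*, *Fadd*, *Tnfrsf18*, *Csf1r*, *Cd163*, *Lyz2* and B cell markers were added after their values were seen. The members and lists were chosen with earlier results of these data known.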

Additional observations from a re-analysis of the deposited data

How the results depend on the processing

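Over 118 alternative values of the 10 members, 109 kept their direction and their side of the threshold and 9 changed direction, with 0 newly past an adjusted p under 0.05, and the smallest adjusted p was 0.48. With voom weights, *Tnfrsf4* was at -0.03 and *Tnfsf14* at 0.067 on the log2 scale, and *Tnfsf11* at 1.00 (unadjusted p = 0.0422, adjusted p = 1). Leaving out 1 library reversed *Tnfrsf4* (-0.10 without CTL replicate 2, -0.02 without *Prdm1*-CKO replicate 2), *Tnfsf8* (-0.036 without *Prdm1*-CKO replicate 1), *Fasl* (0.025 without CTL replicate 3, 0.15 without *Prdm1*-CKO replicate 1), *Tnfsf14* (0.21 without CTL replicate 3) and *Tnfsf11* (-0.22 without CTL replicate 1), and the causes were not tested. The ranges with 1 library left out were -0.10 to 0.24 for *Tnfrsf4*, -0.21 to -0.006 for *Tnfrsf9*, -0.25 to -0.051 for *Cd27*, 0.15 to 0.69 for *Tnfrsf1b*, -0.036 to 0.43 for *Tnfsf8*, -0.44 to -0.15 for *Cd40lg*, -0.20 to 0.15 for *Fasl*, -0.26 to 0.21 for *Tnfsf14*, -0.22 to 0.82 for *Tnfsf11*, 2.93 to 6.04 for *Cd70* (no filter), and for the list medians -0.048 to 0.10 (partners), -0.16 to 0.15 (other ligands), -0.046 to 0.22 (other receptors), -0.058 to 0.028 (adaptors) and 0.0055 to 0.14 (NF-kB). The partner median was -0.016 with voom weights. Over all genes, DESeq2 called 7 higher and 2 lower and edgeR without the filter 1 higher, none of them members. With 1 library left out, between 58 and 580 genes above 0 and between 107 and 617 below 0 had an unadjusted p under 0.05, and with DESeq2 264 and 417 did. By CPM without length, 3 of the 10 positions in the order of levels were kept. With the replicate block, no member was called, *Tnfrsf1b* was at 0.40 (unadjusted p = 0.048, adjusted p = 0.992), *Cd70* had an unadjusted p of 0.0731, the adaptor median was -0.0017, and an unadjusted p under 0.05 was reached by 175 genes above 0 and 196 below, against 135 and 207 without it. Residuals of same-numbered libraries correlated at 0.158, 0.0282 and 0.016, so the numbers were not taken as pairs, and CTL replicate 3 did not correlate best with its own number.

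The median 95% interval over all tested genes spanned 0.77 to each side on the log2 scale, with no adjustment for the number of genes. Among the tested members the intervals ran from the narrowest, -0.52 to 0.18 for *Cd27*, to the widest, -0.87 to 1.30 for *Tnfsf11*. Depth limits *Cd70* most, since the CTL values rest on 2 counts in all.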
